A study of Mus musculus with 26 samples.

Results

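The 7 genes of cholesterol synthesis, Hmgcs1, Idi1, Fdps, Fdft1, Sqle, Lss and Dhcr7, were followed over 5 ages in lacrimal glands, the source of watery tears, of an autoimmune mouse strain. All probe sets annotated to only 1 of these genes were taken, where a probe set is a group of short probes on an Affymetrix array that reads 1 stretch of a transcript. They numbered 18 of the 34958 probe sets with a single gene symbol, and their 7 genes stood among 18194 genes. Of the 18 probe sets, 13 from 6 genes were bright enough to be tested, and the remaining 5 are given by their values.

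The mice were males of the strain C57BL/6.NOD-Aec1Aec2, in which the Idd3 and Idd5 regions of the diabetes-prone NOD mouse were bred into C57BL/6. The strain serves as a model of primary Sjögren's syndrome, an autoimmune disease of the tear and salivary glands. Total RNA of lacrimal glands was hybridised to 26 arrays, with 4 arrays at 4 weeks of age (before disease), 6 at 8 weeks (early pre-clinical), 6 at 12 weeks (leukocytes first enter), 5 at 16 weeks (early clinical autoimmunity) and 5 at 20 weeks (reduced secretion). The labels call the arrays biological replicates without saying whether an array holds 1 animal or several pooled ones. No mice of another strain were analysed here, so age and disease stage cannot be told apart. P-values therefore rest on the spread between these arrays, whatever its source.

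Cholesterol is made from acetyl-CoA by a chain of enzymes. Hmgcs1, the cytosolic HMG-CoA synthase, acts early in the mevalonate pathway. Idi1 isomerises isopentenyl diphosphate and Fdps joins isoprene units into farnesyl diphosphate, the branch point at which Fdft1, squalene synthase, commits carbon to sterols. Sqle oxidises squalene, Lss closes the sterol ring, and Dhcr7 carries out a last reduction. These genes are classic targets of the transcription factor SREBP-2, which is held in the endoplasmic reticulum while sterols are plentiful and is processed into an active form when they run low. Cholesterol is a component of cell and secretory granule membranes, and the lacrimal acinar cell is a secretory cell.

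Values are log2 expression as deposited, so a difference of 1 is a factor of 2. The median of all probe sets on an array lay between 2.94 and 3.22. An age mean under 4.04, within 1 log2 unit of the median of these medians, is called near background here. The size of a change to or from it may be understated. Tests covered the 20110 probe sets that exceeded the median of their array on 4 or more arrays. A probe set is called changed at an adjusted p under 0.05 in limma, with Benjamini-Hochberg adjustment over all 20110, and each change carries the standard error (SE) from that fit.

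Promoter sequences are shown for members whose starts RefSeq lists in GRCm38.p6, as the stretch in which SREBP-2 and the factor NF-Y are known to act together at sterol genes. Such sequences were found for 4 of the 7 members, Hmgcs1, Idi1, Lss and Dhcr7. The first stretch below belongs to Hmgcs1, the member with the most called probe sets, and the other 2 to members that did not pass any test. Each holds the 250 bases before the start, on the plus strand, at chr13:119690101-119690350 for Hmgcs1, chr13:8885356-8885605 for Idi1 and chr7:143829964-143830213 for the last of 3 listed Dhcr7 starts. Capitals mark matches on either strand to TCACNCCAC, a form of the sterol regulatory element, and to CCAAT, the NF-Y box, which reads ATTGG on the other strand.
Hmgcs1: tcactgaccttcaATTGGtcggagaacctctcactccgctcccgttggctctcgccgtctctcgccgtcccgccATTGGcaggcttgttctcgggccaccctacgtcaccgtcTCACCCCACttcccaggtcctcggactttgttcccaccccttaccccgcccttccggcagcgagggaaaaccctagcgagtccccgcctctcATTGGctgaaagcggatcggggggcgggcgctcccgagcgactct
Idi1: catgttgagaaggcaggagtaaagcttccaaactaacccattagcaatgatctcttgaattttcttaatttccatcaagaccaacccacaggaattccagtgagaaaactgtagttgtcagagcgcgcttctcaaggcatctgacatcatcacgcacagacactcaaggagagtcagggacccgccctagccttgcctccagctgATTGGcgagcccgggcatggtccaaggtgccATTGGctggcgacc
Dhcr7: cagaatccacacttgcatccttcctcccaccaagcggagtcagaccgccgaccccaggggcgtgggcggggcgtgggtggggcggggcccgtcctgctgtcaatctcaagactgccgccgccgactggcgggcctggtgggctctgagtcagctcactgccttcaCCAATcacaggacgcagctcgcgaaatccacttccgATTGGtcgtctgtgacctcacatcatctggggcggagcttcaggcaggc
Hmgcs1 held 1 match to TCACNCCAC, beginning 137 bases before the start, with 3 CCAAT boxes around it. Idi1 and the printed Dhcr7 stretch held 2 CCAAT boxes each and no match to TCACNCCAC, the stretches at the other 2 listed Dhcr7 starts held neither motif, and the Lss promoter held 1 CCAAT box and no such match. Among 32851 promoters of the same length, 1.05% held TCACNCCAC and 33.9% held CCAAT on either strand. A match is a description of letters, and its absence says only that these letters are not in this window.

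The arrays differed in quality. A pair of arrays, 20 weeks replicate 1 and 16 weeks replicate 4, had a narrow spread of values, with an SD over all probe sets of 1.36 and 1.68 where the other 24 arrays had 1.78 to 2.27. Their median correlation with the remaining arrays of their age was 0.869 and 0.921, and that of the other 24 was 0.956 to 0.986. The gap from the 5' to the 3' control probe sets of actin, which widens as RNA is degraded or incompletely copied, averaged 2.90, 2.63, 3.69, 4.56 and 3.89 at 4, 8, 12, 16 and 20 weeks. The mean of 6 acinar markers lay between 8.88 and 9.67 at every age, with Aqp5 and Bhlha15 bright and Chrm3 near background at all ages. On the 2 arrays of narrow spread that mean was 7.30 and 7.19, against 8.44 to 9.94 on the other 24. The lowest Fdps value, 3.33, came from 16 weeks replicate 4, and the lowest Hmgcs1 1433445_x_at value, 5.63, from 20 weeks replicate 1. The part of the acinar markers in these values was not tested. The mean of 6 salivary gland products ranged from 4.31 to 11.2 over the arrays. The 3 measured markers of sebaceous, meibomian or Harderian glands, which are lipid-secreting neighbours, were Mc5r, Elovl3 and Scd3. Together they had a mean of 2.42 to 2.73 on every array, and each was near background at all ages. The mean of 7 macrophage markers was 5.60 at 4 weeks and 8.14, 8.03, 7.72 and 7.71 later. That of 4 adipocyte markers was 3.25, 3.33, 4.06, 4.63 and 3.46 by age. It reached 6.04 on 12 weeks replicate 1 and 6.38 and 6.64 on 16 weeks replicates 1 and 2. The other arrays at 16 weeks lay at 3.28 to 3.52. The mean of 5 lymphocyte markers lay between 3.06 and 3.44 by age. On 12 weeks replicate 4 it was 5.21, against 2.99 to 3.19 on the other arrays of that age. The age means of Cd3e, Cd3g, Cd79a and Cd79b were near background throughout. In whole glands, fewer cells of a type and less RNA per cell cannot be told apart.

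Over the 5 ages, 4 of the 13 member probe sets, from Fdft1, Fdps and Hmgcs1, passed the F test of limma, against 14.9% of all probe sets tested. From 4 to 8 weeks 1 of 13 passed, a lower Fdft1, against 1.04% of all. From 4 to 20 weeks 3 of 13 passed, all lower and from Fdft1 and Hmgcs1, against 3.11%. Between neighbouring later ages no member passed. The background there was 0.0199% of probe sets from 8 to 12 weeks, 2.29% from 12 to 16 weeks and 0.00995% from 16 to 20 weeks, and 0, 2 and 2 of the 13 members had an unadjusted p under 0.05. A comparison of 20 with 8 weeks was added after the values of Fdps were seen. In it 5 of 13 passed, 4 lower and 1 higher, from Fdps and Hmgcs1, against 26.7% of all probe sets. The median member change was -0.27 from 4 to 8 weeks, -0.68 from 4 to 20 weeks and -0.07 from 8 to 20 weeks, against -0.01, 0.01 and -0.00 over all probe sets tested. Between the neighbouring later ages it was 0.07, 0.05 and -0.33, against 0.01, -0.02 and 0.02. The comparisons share arrays, so their counts are not independent of each other. Probe sets of 1 gene are not independent of each other either. By gene, 3 of the 6 tested had a call over the 5 ages and 1 from 4 to 8 weeks. From 4 to 20 and from 8 to 20 weeks 2 of the 6 had one.

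The shares over all probe sets themselves rested on single arrays. The 5370 calls from 8 to 20 weeks became 2406, 3005 and 3441 when replicate 1, 4 or 5 of 8 weeks was left out, or 2614 and 2633 when replicate 1 or 4 of 20 weeks was. The 625 calls from 4 to 20 weeks became 200 and 165 when replicate 2 or 4 of 4 weeks was left out. Leaving out replicate 2, 3 or 4 of 20 weeks gave 391, 311 and 279, and leaving out replicate 1 gave 1199. The 210 calls from 4 to 8 weeks became 78, 106 and 133 when replicate 2, 3 or 4 of 4 weeks was left out. Leaving out replicate 1, 3, 4 or 5 of 8 weeks gave 117, 128, 87 and 115, leaving out replicate 6 gave 546, and leaving out replicate 1 of 20 weeks gave 523. The 2994 calls over the 5 ages became 4847 without 20 weeks replicate 5. No other left-out array moved these 4 counts by more than 1.5 times.

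Fdft1, squalene synthase, was high at 4 weeks and near background at 8 weeks. Probe set 1448130_at read 5.88, 6.92, 4.39 and 6.36 on the 4 arrays at 4 weeks. At 8 weeks its lowest, median and highest values were 3.73, 3.96 and 4.04, and at 12 weeks 3.64, 4.02 and 4.26. Every array at 8 and 12 weeks thus lay below every array at 4 weeks. The 5 arrays at 16 weeks read 4.05, 5.51, 3.81, 3.45 and 3.72, and those at 20 weeks 4.10, 4.10, 3.73, 3.70 and 3.65. At 16 weeks replicate 2 alone lay within the range of the 4-week arrays, and at 20 weeks no array did. The mean fell from 5.89 ± 1.08 (SD, n = 4) at 4 weeks to 3.93 ± 0.13 (SD, n = 6) at 8 weeks, a change of -1.96 ± 0.35 (SE, adjusted p = 0.00528), at least 3.90-fold. From 4 to 20 weeks it fell by 2.03 ± 0.37 (SE, adjusted p = 0.00391), and over the 5 ages the adjusted p was 0.00282. Each of these calls was kept without any 1 of the 26 arrays. Fitted on the arrays of the ages compared alone, the same changes had an adjusted p of 0.0589 and 0.184.

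The other tested Fdft1 probe set, 1438322_x_at, whose name ending marks probes that may bind related transcripts, was likewise highest at 4 weeks, with more spread. It read 6.44, 5.59, 3.10 and 5.02 at 4 weeks. At 8 weeks the lowest, median and highest values were 2.75, 3.09 and 4.09, and all age means from 8 weeks on were near background, between 3.18 and 3.66. At 4 weeks replicate 3 was the lowest array in both probe sets, and in this one it overlapped the later ages. The change from 4 to 20 weeks was -1.86 ± 0.49 (SE, adjusted p = 0.0385), that from 4 to 8 weeks -1.77 ± 0.47 (SE, adjusted p = 0.0678), and the F test gave an adjusted p of 0.0457. The call from 4 to 20 weeks was lost without 4 weeks replicates 1, 2 or 4 (adjusted p = 0.132, 0.138 and 0.130) and without 20 weeks replicates 2, 3 or 4 (0.0745, 0.0768 and 0.0703). Without 4 weeks replicate 3 the change from 4 to 8 weeks was -2.41 with an adjusted p of 0.00390. The F test call was kept without 4 weeks replicate 3, 8 weeks replicate 1, 12 weeks replicates 1, 2 or 4, 16 weeks replicates 2, 3 or 4, or 20 weeks replicate 5, and was lost without any of the other arrays, with an adjusted p of 0.0521 to 0.150. Over the 26 arrays the 2 probe sets correlated at 0.81, with the age groups as a shared source. The remaining Fdft1 probe sets, 1438918_at and 1438919_x_at, lay between 1.42 and 1.68 and never above an array median. Averaged over all 4 probe sets, Fdft1 fell by 0.96 from 4 to 8 weeks (adjusted p = 0.00525). Of the 7 macrophage markers 4 passed from 4 to 8 weeks, all higher, against 1.04% of all probe sets. Their mean had its highest 4-week value at 5.89 and its lowest 8-week value at 7.67, and the markers' part in the Fdft1 result was not tested.

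**Figure D1:**
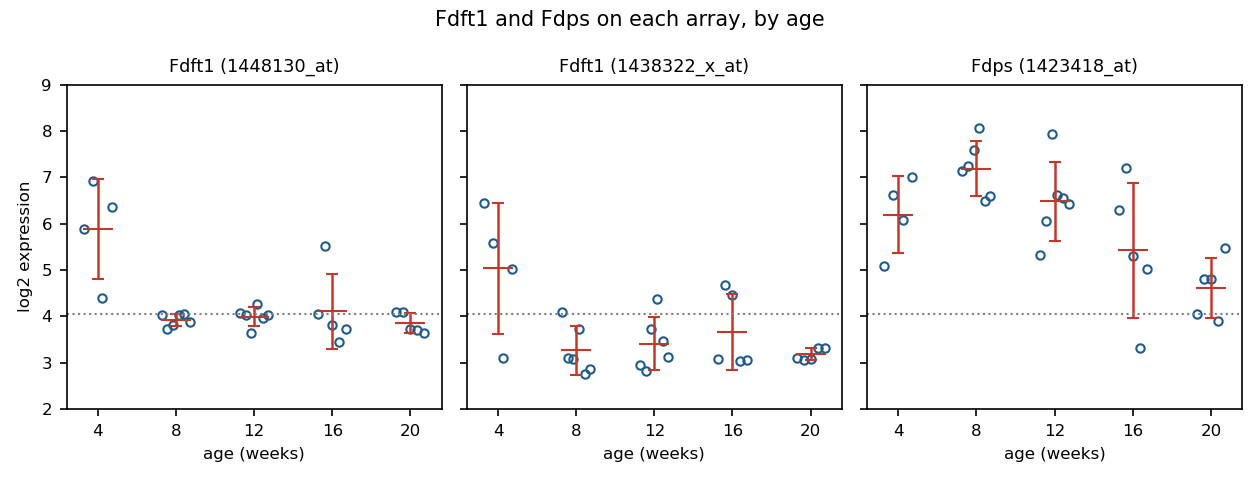
Log2 expression (vertical axis) of 2 Fdft1 probe sets and of Fdps against age in weeks, where circles are single arrays, the horizontal line is the age mean, the bar is ± 1 SD, and the dotted line at 4.04 is the limit called near background. Fdft1 1448130_at lies between 4.39 and 6.92 at 4 weeks and at 4.04 or lower at 8 weeks, and Fdps is highest at 8 weeks and lowest at 20 weeks.

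Fdps, farnesyl diphosphate synthase, followed another course, with its highest mean at 8 weeks and its lowest at 20 weeks. Probe set 1423418_at read 5.08, 6.61, 6.08 and 7.01 at 4 weeks. Its lowest, median and highest values were 6.48, 7.19 and 8.06 at 8 weeks, and 5.32, 6.48 and 7.93 at 12 weeks. The 5 arrays at 16 weeks read 6.29, 7.20, 5.30, 3.33 and 5.02, and those at 20 weeks 4.06, 4.81, 4.81, 3.91 and 5.48. The 16-week arrays thus spread over nearly the whole range, with replicate 4, an array of narrow spread, lowest. All 5 arrays at 20 weeks lay below all 6 at 8 weeks. The means were 6.19 ± 0.83 (SD, n = 4), 7.18 ± 0.60 (n = 6), 6.48 ± 0.86 (n = 6), 5.43 ± 1.46 (n = 5) and 4.61 ± 0.64 (n = 5), with an adjusted p of 0.0151 in the F test.

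From 8 to 20 weeks Fdps fell by 2.57 ± 0.54 (SE, adjusted p = 0.00330), a factor of 5.95, in the comparison added after its values were seen. That call of 1423418_at was kept in all 38 alternatives fitted on this probe set, each left-out array among them. No step between neighbouring ages passed for Fdps, with changes of 0.99 (4 to 8 weeks, adjusted p = 0.423), -0.70 (8 to 12 weeks, 1.000), -1.05 (12 to 16 weeks, 0.266) and -0.82 (16 to 20 weeks, 0.653). The change of -1.58 ± 0.59 (SE) from 4 to 20 weeks had an adjusted p of 0.168. The F test call of Fdps was lost with the SD of each array as a covariate (adjusted p = 0.0726) and with the actin difference as one (0.0598). The fall from 8 to 20 weeks remained under the adjusted p threshold with both, and lay between -2.79 and -1.76 over these 38. The second Fdps probe set, 1438150_at, lay between 2.31 and 3.22 on 25 arrays and at 5.21 on 20 weeks replicate 1, and was not tested. With both probe sets averaged, the change from 8 to 20 weeks was smaller, -0.91 (adjusted p = 0.0243), and the F test did not pass (0.0825).

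Hmgcs1, the HMG-CoA synthase at the entry of the pathway, has 5 probe sets, all tested, and they did not move alike. Probe set 1433446_at read 4.40, 6.27, 6.39 and 8.76 at 4 weeks, and its lowest, median and highest values were 4.27, 6.09 and 6.61 at 8 weeks and 4.28, 5.96 and 6.52 at 12 weeks. At 16 weeks it read 5.23, 4.34, 4.29, 4.12 and 4.29, and at 20 weeks 3.75, 4.22, 4.27, 4.18 and 4.16. The 5 arrays at 20 weeks lay below all 4 at 4 weeks, although 4 weeks replicate 1 at 4.40 was close to them. The mean fell from 6.45 ± 1.78 (SD, n = 4) to 4.12 ± 0.21 (SD, n = 5), a change of -2.33 ± 0.61 (SE, adjusted p = 0.0367), and over the 5 ages the adjusted p was 0.0300.

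This call of Hmgcs1 1433446_at from 4 to 20 weeks rested on a few arrays. Without 4 weeks replicate 4, the array at 8.76, the change was -1.57 (adjusted p = 0.216). It was also lost without 4 weeks replicate 2 (0.0878) and without 20 weeks replicates 2, 3 or 4 (0.0640, 0.0659 and 0.0713). The F test call was lost without 20 weeks replicates 2 or 4 (adjusted p = 0.0509 and 0.0508). With the actin difference as a covariate the 4 to 20 week change was -1.84 (adjusted p = 0.132).

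Probe sets 1433444_at and 1433445_x_at of Hmgcs1 lay much further above background and moved together, with a correlation of 0.97 over the 26 arrays. The latter has the name ending of Fdft1 1438322_x_at, which marks probes that may bind related transcripts. For 1433445_x_at the arrays at 4 weeks read 9.47, 9.88, 9.16 and 10.62, and the lowest, median and highest values at 8 weeks were 9.15, 9.45 and 9.73. The arrays at 20 weeks read 5.63, 8.88, 8.77, 8.04 and 9.08. All 5 of them lay below all arrays at 4 and at 8 weeks, and replicate 1, the array of narrowest spread, lay lowest. The change from 8 to 20 weeks was -1.37 ± 0.44 (SE, adjusted p = 0.0301) for 1433445_x_at and -1.41 ± 0.47 (SE, adjusted p = 0.0346) for 1433444_at. Without 20 weeks replicate 1 these became -0.75 (adjusted p = 0.0787) and -0.83 (0.118). From 4 to 20 weeks their changes of -1.70 ± 0.49 and -1.68 ± 0.52 (SE) had an adjusted p of 0.0567 and 0.0851. Without 20 weeks replicate 1 the former was -1.09, with an adjusted p of 0.0420, and it also passed without 4 weeks replicate 3 (-1.91, 0.0413) and without 20 weeks replicate 5 (-1.95, 0.0276).

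Other single arrays decided further calls of Hmgcs1 from 8 to 20 weeks. Probe set 1433444_at also lost its call without 8 weeks replicates 1, 2, 3 or 4 (adjusted p = 0.0693, 0.0578, 0.0504 and 0.0638) or 20 weeks replicate 4 (0.0655). Probe set 1433445_x_at lost it without 8 weeks replicates 1, 2 or 4 (0.0617, 0.0503 and 0.0503) or 20 weeks replicate 4 (0.0613). Probe set 1433446_at changed by -1.64 ± 0.55 (SE, adjusted p = 0.0343), with overlapping groups, and lost the call without 8 weeks replicates 1, 4 or 5 (0.0765, 0.0702 and 0.0683) or 20 weeks replicates 1 or 4 (0.0795 and 0.0655). With the SD of each array as a covariate none of the 3 passed (adjusted p = 0.305 for 1433444_at, 0.239 for 1433445_x_at and 0.187 for 1433446_at). Under quantile normalisation their changes from 8 to 20 weeks were -0.69 for 1433444_at (0.0722) and -0.63 for 1433445_x_at (0.0586), while those from 4 to 20 weeks passed, at -1.45 (0.00439) and -1.46 (0.00142).

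The remaining 2 Hmgcs1 probe sets were not lower at 20 than at 8 weeks. Probe set 1433443_a_at, whose means lay between 7.72 and 8.65, passed no test. Its arrays at 20 weeks read 4.13, 9.19, 8.42, 9.02 and 9.10, so that replicate 1 stood far below the others. Without that array the change from 8 to 20 weeks was 1.21 (adjusted p = 0.0485), and with the SD of each array as a covariate 1.54 (0.0261), opposite in sign to 1433444_at, 1433445_x_at and 1433446_at. Its correlation with 1433444_at was 0.64 over 26 arrays and 0.09 without the 2 arrays of narrow spread. Probe set 1441536_at was near background at every age, with means between 3.09 and 3.40. It was higher at 20 than at 8 weeks by 0.31 ± 0.10 (SE, adjusted p = 0.0312), a call lost without 8 weeks replicates 1 or 4 (0.0719 and 0.0507) and without 20 weeks replicates 1 or 4 (0.0986 and 0.0724). Averaged over its 5 probe sets, Hmgcs1 changed by -1.24 from 4 to 20 weeks (adjusted p = 0.0595) and by -0.77 from 8 to 20 weeks (adjusted p = 0.0758), and neither passed.

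**Figure D2:**
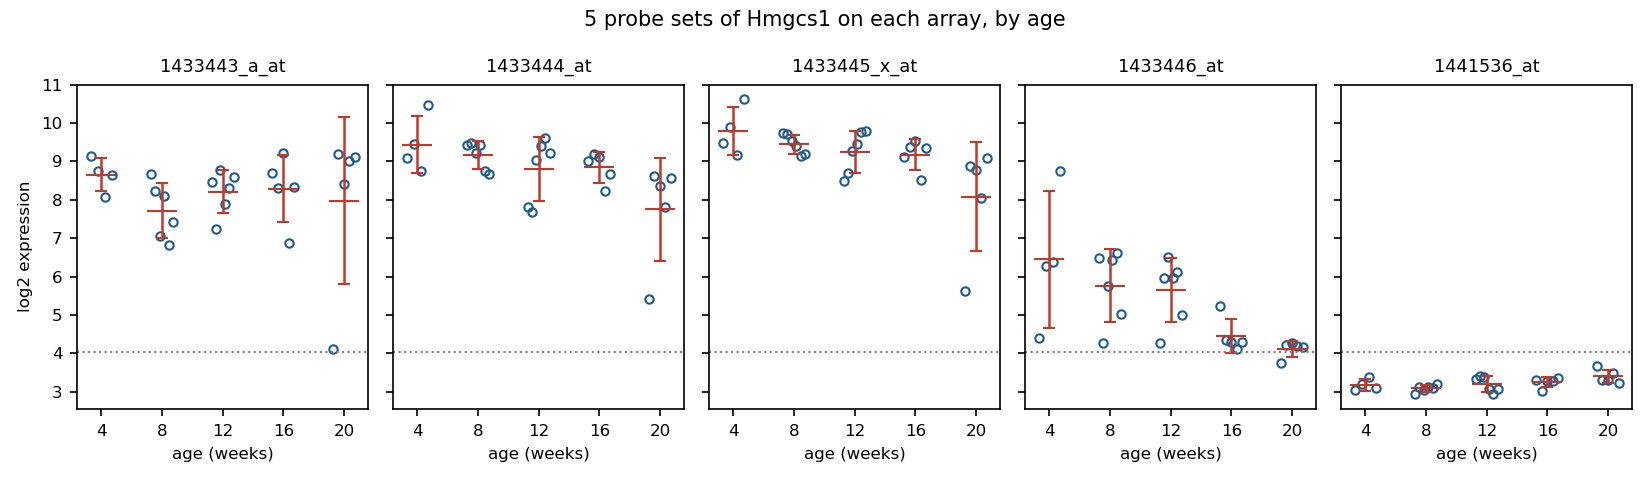
Log2 expression (vertical axis) of the 5 Hmgcs1 probe sets against age in weeks, with arrays as circles, age means as horizontal lines, ± 1 SD as bars and the near-background limit of 4.04 as a dotted line. Probe sets 1433444_at, 1433445_x_at and 1433446_at are lowest at 20 weeks, while 4 of the 5 arrays of 1433443_a_at at 20 weeks lie at 8.42 or above.

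Sqle, squalene epoxidase, stood at the floor of the array. Its only probe set, 1415993_at, read 2.19, 1.84, 1.85 and 1.81 at 4 weeks and between 1.74 and 1.90 on the other 22 arrays. It lay above no array's median, so it was not tested, and a value at this level cannot be told from background.

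Idi1, the isopentenyl diphosphate isomerase, and Lss, lanosterol synthase, passed no test. Idi1 1451122_at had means of 4.44, 4.41, 4.57, 4.59 and 4.15 over the 5 ages. The 5 arrays at 20 weeks read 3.78, 4.53, 3.91, 4.02 and 4.50, overlapping the 8-week range of 3.82 to 4.98, and the change from 8 to 20 weeks was -0.26 (95% interval -0.75 to 0.22). Idi1 1423804_a_at was near background at every age, with means between 3.60 and 4.01. Its correlation with 1451122_at was 0.39.

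For Lss, probe set 1420013_s_at had means between 4.40 at 12 weeks and 4.91 at 4 weeks. Its range was 4.83 to 5.07 at 4 weeks and 3.70 to 4.83 at 12 weeks, where replicate 1 reached the lowest 4-week array. The largest difference between neighbouring ages, 0.35 from 12 to 16 weeks, had an adjusted p of 0.242. Lss 1426913_at was near background throughout, with means between 3.55 and 3.90, and its change of 0.34 from 8 to 20 weeks (adjusted p = 0.0720) passed only without 12 weeks replicate 5 among the left-out arrays (0.0438). Its correlation with 1420013_s_at was 0.25. The last Lss probe set, 1420014_at, lay between 2.10 and 2.40 and was not tested.

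Dhcr7, the 7-dehydrocholesterol reductase, had its highest means at 12 and 16 weeks but passed no test in the fit without covariates or array weights. Probe set 1448619_at read 6.41, 4.77, 4.40 and 5.01 at 4 weeks, and its lowest, median and highest values were 4.51, 5.15 and 6.37 at 8 weeks and 5.01, 5.88 and 6.85 at 12 weeks. At 16 weeks it read 5.60, 6.50, 6.50, 5.03 and 6.38, and at 20 weeks 4.42, 5.94, 5.84, 5.08 and 6.42. The groups overlapped at every age, and the SD within an age, between 0.66 and 0.88, was about as wide as the range of the age means, 0.85. The F test gave an adjusted p of 0.366, and the change from 4 to 20 weeks was 0.40 (95% interval -0.62 to 1.41). With the SD of each array as a covariate the F test did pass (adjusted p = 0.0413), and the change from 8 to 20 weeks was 1.06 (0.0384) in place of 0.24 (0.692). With array weights all 13 member probe sets passed the F test, Dhcr7 with an adjusted p of 0.00128. In that setting 12671 of the 20110 probe sets tested passed it.

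**Figure D3:**
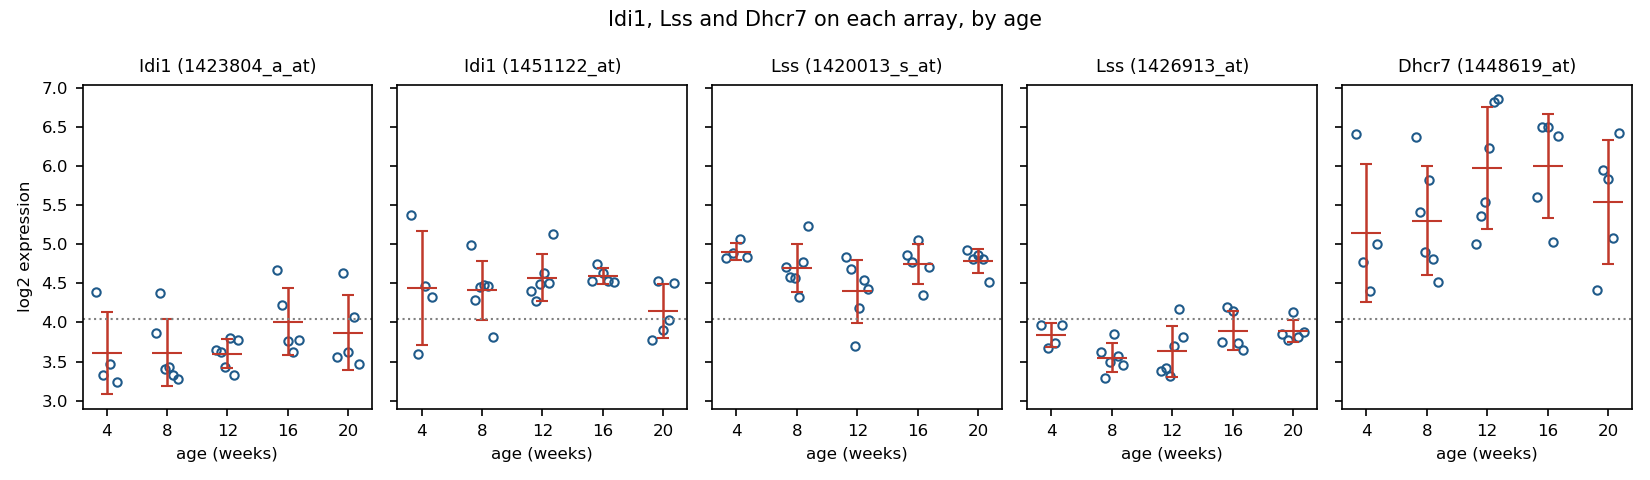
Log2 expression (vertical axis) of the tested probe sets of Idi1, Lss and Dhcr7 against age in weeks, with arrays as circles, age means as horizontal lines, ± 1 SD as bars and the near-background limit of 4.04 as a dotted line. The ages overlap in each probe set, and Dhcr7 spans 4.40 to 6.85 over the 26 arrays.

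Of the 13 tested probe sets, Fdft1 1448130_at had the largest share of its variance between ages, 65.5%, followed by Fdps with 54.6% and Hmgcs1 1433446_at with 49.2%. The share was 8.26% for Hmgcs1 1433443_a_at and between 16.4% and 19.9% for Idi1 and Dhcr7. Such a share is not corrected for the part that arises without any age effect. Hmgcs1 1433443_a_at and the tested probe sets of Idi1 and Dhcr7 did not pass the F test in the fit without covariates or array weights. With each gene read by its brightest probe set, correlations over the 26 arrays, which share strain and platform, ranged from -0.33 between Fdps and Lss to 0.67 between Idi1 and Dhcr7. Hmgcs1 and Fdps correlated at 0.62, and Fdft1 and Fdps at 0.20. Without the 2 arrays of narrow spread, Idi1 and Dhcr7 correlated at 0.64 and Hmgcs1 and Fdps at 0.59.

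**Figure D4:**
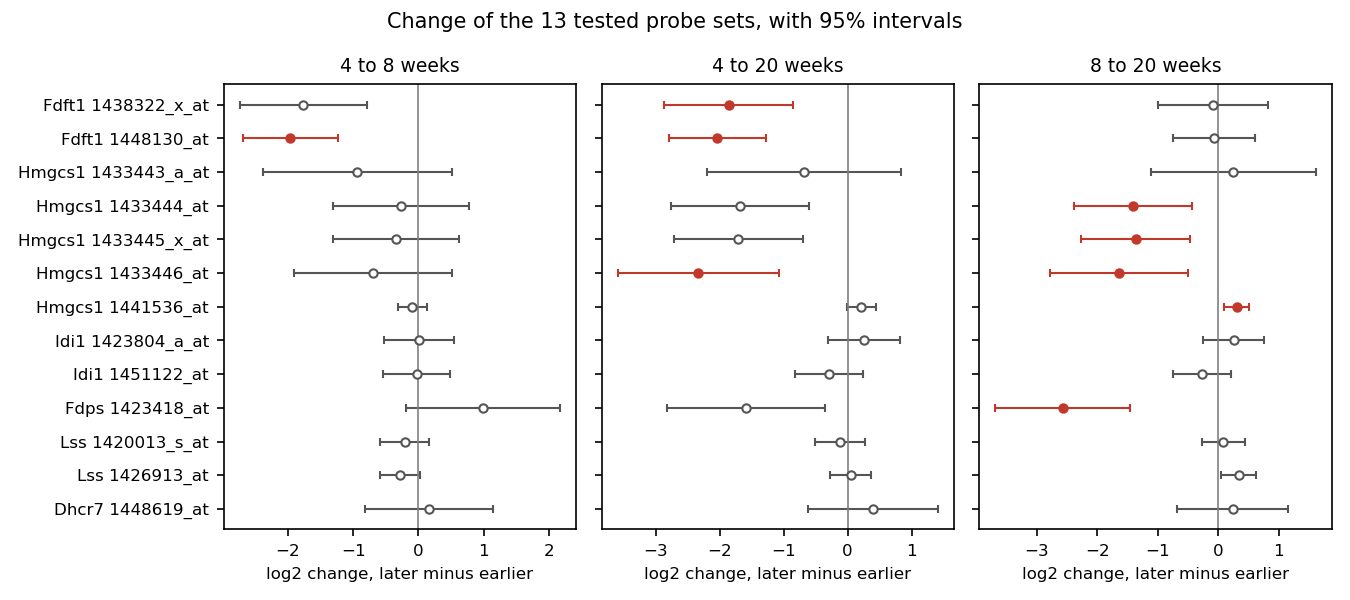
Log2 change (horizontal axis, later minus earlier age) of the 13 tested member probe sets from 4 to 8, 4 to 20 and 8 to 20 weeks, where points are estimates, bars are 95% intervals and filled red points passed at an adjusted p under 0.05. Fdft1 is lower at 8 and at 20 than at 4 weeks, and Fdps and 3 Hmgcs1 probe sets are lower at 20 than at 8 weeks.

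Other enzymes of the same pathway were read from a list of 15 genes, of which 12 had a probe set and 9 were tested, each by its brightest probe set. Pmvk, which phosphorylates mevalonate phosphate, and Ebp, a sterol isomerase, passed the F test (adjusted p = 0.00795 and 0.0120), 2 of 9 against 14.9% of all probe sets. Mean Ebp was 6.88, 7.86, 7.64, 5.90 and 4.85 at 4, 8, 12, 16 and 20 weeks, and mean Pmvk was 3.83, 5.56, 5.72, 4.81 and 3.85, near background at the first and last age. None of the 9 passed between neighbouring ages or from 4 to 20 weeks. From 8 to 20 weeks, 4 of the 9 passed, all lower, against the 26.7% of all probe sets already given. Ebp fell by 3.01 ± 0.66 (SE, adjusted p = 0.00445) and Pmvk by 1.72 ± 0.44 (SE, adjusted p = 0.0108), and both calls were kept in 38 of 39 alternatives. Ebp lost it with the actin difference as a covariate (-2.19, 0.0545) and Pmvk with the SD of each array as one (-1.29, 0.0789).

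Sc5d and Msmo1, which act on the sterol ring before Dhcr7 completes it, made up the 4. Sc5d fell by 1.78 ± 0.52 (SE, adjusted p = 0.0219), a call lost without 8 weeks replicate 1 (0.0541) and without 20 weeks replicates 1 or 4 (0.0651 and 0.0543). Msmo1 fell by 1.05 ± 0.36 (SE, adjusted p = 0.0367), a call lost without 8 weeks replicates 1, 2, 4 or 5 (0.0856, 0.0569, 0.0842 and 0.0522) and without 20 weeks replicates 1, 2, 3 or 4 (0.0824, 0.0594, 0.0631 and 0.0608). Averaged over its 2 probe sets, Msmo1 changed by -0.26 (0.244). With the SD of each array as a covariate Sc5d changed by -0.78 (0.170) and Msmo1 by -0.55 (0.297). Mvk, Ggps1, Cyp51, Lbr and Nsdhl passed no test, with changes from 8 to 20 weeks between -0.72 for Ggps1 and 0.62 for Mvk. The median over the 9 was 0.45 from 4 to 8 weeks and -0.72 from 8 to 20 weeks, against -0.01 and -0.00 over all probe sets tested. Mvd, Tm7sf2 and Hsd17b7 were not tested.

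Of 7 genes that sense sterols or process SREBP, all tested, 1 passed the F test, near the 14.9% of all probe sets, and it was Insig2 (adjusted p = 0.0291). Srebf2, the gene of SREBP-2 itself, had means between 4.40 and 4.51 at all ages and passed no test. From 8 to 20 weeks 2 of the 7 passed, near the 26.7% of all probe sets. Insig2, which retains SREBP in the endoplasmic reticulum, fell by 0.92 ± 0.31 (SE, adjusted p = 0.0341), and Mbtps1, the protease that makes the first cut in SREBP, fell by 1.49 ± 0.47 (SE, adjusted p = 0.0290). Under quantile normalisation Insig2 changed by -0.14 (adjusted p = 0.619). Without 20 weeks replicate 1 Insig2 changed by -0.50 (adjusted p = 0.104) and Mbtps1 by -0.80 (0.0620). Insig2 also lost the call without 8 weeks replicates 1, 2, 3 or 4 (0.0824, 0.0642, 0.0505 and 0.0593), and Mbtps1 without 8 weeks replicates 1, 4 or 5 (0.0645, 0.0564 and 0.0502). With the SD of each array as a covariate Insig2 changed by -0.34 (0.314) and Mbtps1 by -0.51 (0.221). The F test of Insig2 was lost under quantile normalisation (0.376), with the array SD (0.195) or the actin difference (0.0728) as a covariate, and without 12 weeks replicates 3, 5 or 6 (0.0564, 0.0523 and 0.0509).

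In the fatty acid branch of SREBP targets, 1 of 7 genes, all tested, passed from 4 to 8 weeks, against 1.04% of all probe sets. Scd1, the stearoyl-CoA desaturase, which passed the F test (adjusted p = 0.00152), was higher at 8 than at 4 weeks by 2.27 ± 0.49 (SE, adjusted p = 0.0262). That rise was lost without 4 weeks replicates 1 or 2 (0.0642 and 0.118) and without 8 weeks replicates 1, 4 or 5 (0.0644, 0.0588 and 0.0533). The other 6 passed no test, among them Fasn, fatty acid synthase, with means of 6.53, 8.05, 9.25, 8.23 and 6.94. The median change of the 7 was 0.64 from 4 to 8 weeks, against -0.01 over all probe sets tested. From 8 to 20 weeks it was -0.70, against -0.00. Over the 5 ages 1 of the 7 passed the F test, near the 14.9% of all probe sets.

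Among 10 genes of sterol esterification, transport and efflux, 8 had a probe set and 6 were tested. Over the 5 ages 2 of the 6 passed, against 14.9% of all probe sets, and from 4 to 8 weeks 2 of 6, against 1.04%. Apoe, the lipid carrier made in quantity by macrophages, and Abcg1, a sterol exporter, passed the F test (adjusted p = 0.0147 and 0.00409), and both were higher at 8 than at 4 weeks. Abcg1 rose by 1.09 ± 0.24 (SE, adjusted p = 0.0297), a call lost without 4 weeks replicates 2, 3 or 4 (0.123, 0.0713 and 0.0761) and without 8 weeks replicates 1, 4 or 5 (0.0696, 0.0806 and 0.0628). Apoe rose by 3.73 ± 0.88 (SE, adjusted p = 0.0403) and kept that call in 23 of 39 alternatives. It was kept without 8 weeks replicate 6, any array at 12 weeks, 16 weeks replicates 2 or 4, or 20 weeks replicates 1, 4 or 5, and lost without any of the other arrays, with an adjusted p of 0.0503 to 0.181. From 8 to 20 weeks 1 of the 6 passed, against 26.7% of all probe sets. Stard4, near background at every age, was higher at 20 than at 8 weeks by 0.17 (adjusted p = 0.0468) and kept the call in 14 of 37 alternatives. The macrophage marker mean was 5.60 and 8.14 at these early ages, and its part in the Apoe and Abcg1 changes was not tested.

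**Figure D5:**
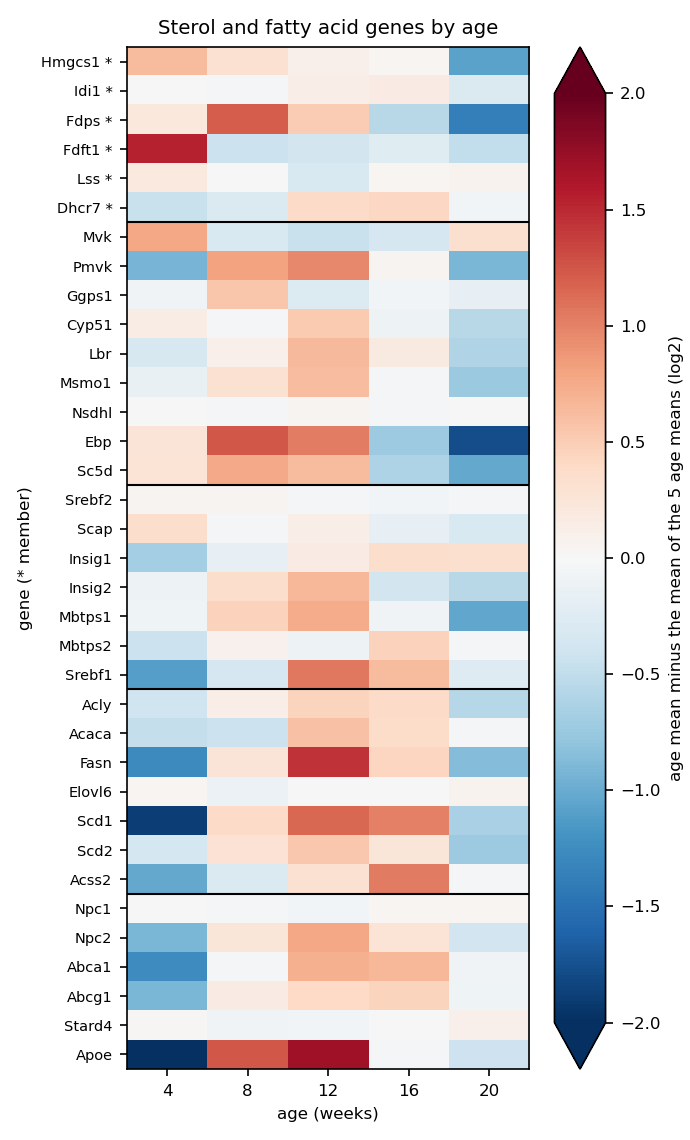
Age means (columns, in weeks) of the tested members (marked with a star) and of the tested genes of the 4 lists, each by its brightest probe set and centred on the mean of its 5 age means, in log2 units as coloured. Fdft1 is reddest at 4 weeks, Fdps and Ebp are reddest at 8 weeks and bluest at 20 weeks, and Scd1 and Apoe are bluest at 4 weeks.

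Over the 26 arrays, the genes whose course was most like the mean of the 7 members, each centred, were Gk5, Etfa, Utp3, Ddx6 and Ireb2, with Pearson correlations of 0.88, 0.88, 0.88, 0.87 and 0.86 among 12371 genes. Without the 2 arrays of narrow spread these were 0.81, 0.83, 0.77, 0.76 and 0.79. The member mean itself, of which each of these genes is a part, followed Hmgcs1 at 0.87, Fdps at 0.73 and Lss at -0.12. Against the mean of the remaining members the correlations were 0.74, 0.37 and -0.23. Likeness to the member mean is therefore mostly likeness to a few members.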

How the data were processed

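The authors deposited a single table of log2 expression values for 45101 probe sets on 26 arrays, which was used as it is. The submitters' processing notes name RMA and GCRMA, methods of background correction, normalisation and probe summary, without their roles or versions, so which of them was applied is not stated here. Arrays were grouped by the age in their labels. Gene names came from the platform's annotation, where 34958 probe sets had 1 gene symbol, 932 several and 9211 none; those with several or none were left out of the tests.

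Linear models (limma 3.58.1, R 4.3.3, lmFit and eBayes) fitted a mean per age over all 26 arrays with no covariate. An F test and contrasts were run on the 20110 probe sets above their array's median on at least 4 arrays, two-sided, with Benjamini-Hochberg adjustment and a threshold of 0.05. The fit was tested on simulated data. The contrast of 20 with 8 weeks was added after values were seen. The number of arrays limits the precision. The members and lists were chosen with earlier results of these data known. Genes outside the members were named where their brightest probe set was called, at most 5 per list by the smallest F test p, together with the 5 genes that correlated best with the member mean. List genes named as passing no test fall outside this rule and were chosen after their values were seen. Alternatives changed the normalisation, the filter, the handling of several probe sets, the prior, array weights, the arrays fitted, a covariate or a replicate block, and left out each array in turn. Acat2, Soat1 and Nr1h2 were not analysed here.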

Additional observations from a re-analysis of the deposited data

Results flagged for a closer look

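Among 65 sets of values, each a tested member probe set at 1 age, 7 held an array far from the others by Dixon's test, where chance gives about 1 in 20. Of the 7, 3 fell on 20 weeks replicate 1, the array of narrowest spread. There Hmgcs1 1433443_a_at read 4.13 against 8.42 to 9.19 on the other arrays of that age, Hmgcs1 1433444_at read 5.42 against 7.82 to 8.61, and Hmgcs1 1433446_at read 3.75 against 4.16 to 4.27. Fdps 1438150_at, which was not tested, read 5.21 on the same array against 2.38 to 3.22 on the others of that age.

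The other 4 were spread over 4 arrays. Hmgcs1 1433446_at read 5.23 on 16 weeks replicate 1 against 4.12 to 4.34, and Hmgcs1 1441536_at read 3.01 on 16 weeks replicate 2 against 3.29 to 3.36. Lss 1420013_s_at read 4.51 on 20 weeks replicate 5 against 4.81 to 4.92, and Lss 1426913_at read 4.13 on 20 weeks replicate 3 against 3.78 to 3.87.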

How the results depend on the processing

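Among called changes of member probe sets, none turned its sign in any alternative run. In the alternatives fitted on single probe sets, the calls of Fdft1 1448130_at over the 5 ages (37 of 37) and of Fdps from 8 to 20 weeks (38 of 38) were kept throughout, and those of Fdft1 from 4 to 8 and from 4 to 20 weeks in 37 of 38 each. Over the 5 ages, the 4 called probe sets became 2 with no filter, 2 with 1 probe set per gene, 1 with probe sets averaged per gene, 13 with array weights and 1 with the actin difference as a covariate, and 2 to 5 when each array was left out in turn. From 4 to 8 weeks, the 1 call became 2 with a filter at the 75th percentile, 4 with array weights, 0 with only the ages compared, 3 with the array SD as a covariate and 2 without the 2 arrays of narrow spread, and 1 to 2 with single arrays left out. From 12 to 16 weeks, 0 became 1 with array weights. From 4 to 20 weeks, the 3 calls became 5 with quantile normalisation, 1 with no filter, with 1 probe set per gene, with averaged probe sets or with the actin covariate, 8 with array weights, 0 with only the ages compared and 5 with the array SD, and 1 to 4 with single arrays left out. From 8 to 20 weeks, the 5 calls became 3 with quantile normalisation or the array SD, 2 with 1 probe set per gene, with only the ages compared or without the 2 arrays, 1 with averaged probe sets or the actin covariate, and 1 to 6 with single arrays left out. These counts can hold calls that were not among the 5. With the array SD the 3 included Hmgcs1 1433443_a_at (1.54, adjusted p = 0.0261) and Dhcr7 (1.06, 0.0384), both higher at 20 weeks. Without the 2 arrays the 2 included Hmgcs1 1433443_a_at (1.21, 0.0213), also higher. The cause of the changes in count was not tested. Array weights stopped before converging and put 9.95 on 4 weeks replicate 2 against 0.54 to 0.76 on the others of that age. With them 6887 of all 20110 probe sets tested passed from 4 to 8 weeks and 3705 from 12 to 16 weeks.

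Same-numbered arrays of different ages correlated in their deviations between -0.48 and 0.46, with 12 of 47 pairs over 0.1, and 1 of 26 arrays correlated best with its own number, so the numbers were not taken as pairs. With the replicate number as a block, 3 of the 5 calls from 8 to 20 weeks remained by count, and overall calls were 125 in place of 210 from 4 to 8 weeks and 3348 in place of 5370 from 8 to 20 weeks.

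Over all probe sets, calls from 4 to 20 weeks were 625, against 1498 with quantile normalisation, 360 with no filter, 5482 with array weights, 10 with only the ages compared, 1807 with the array SD, 325 with the actin covariate and 1577 without the 2 arrays. Those from 8 to 20 weeks were 5370, against 8321 with array weights, 2120 with only the ages compared, 1812 with the array SD, 1212 with the actin covariate and 3097 without the 2 arrays. Calls over the 5 ages were 2994, against 12671 with array weights and 1685 with the actin covariate. Quantile normalisation put 50.7% of calls from 12 to 16 weeks higher, against 12.8% as deposited. Signal over background limits Sqle, Idi1 1423804_a_at, Lss 1426913_at and Hmgcs1 1441536_at, which were near background at every age. Member comparisons that did not pass numbered 78, and 46 of 2900 refits of them passed.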
